A study of Bos taurus with 14 samples.

Results

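The 3 mature miRNAs described here, bta-miR-874, bta-miR-1306 and bta-miR-6119-3p, have precursors that overlap protein-coding genes by position, without regard to strand. In the RefSeq annotation of the ARS-UCD2.0 assembly, the precursor of bta-miR-874 overlaps KLHL3 on chromosome 7. That of bta-miR-1306 overlaps DGCR8 on chromosome 17, and that of bta-miR-6119-3p overlaps RPL39 on chromosome X. They are 3 of the 1030 mature miRNAs in the count table and 3 of the 341 with deposited CPM (a count scaled to a fixed total over the retained miRNAs of the heifer). They were selected from their measured values in the contrast of the fertility groups, in which all 3 had lower mean levels in subfertile heifers. That contrast is therefore given below as a description and not as a test. The other arm of the mir-6119 hairpin, bta-miR-6119-5p, is given beside them.

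Peripheral white blood cells (PWBC) were taken at weaning from 14 Angus-Simmental crossbred heifers, and 1 small RNA library was made from each. The fertile heifers (FH, n = 7) later became pregnant to artificial insemination (AI). The subfertile heifers (SFH, n = 7) did not become pregnant. All heifers went through synchronised AI after the blood was taken and were then exposed to bulls, so that the groups differ in a later outcome and not in a treatment. No cell counts of the samples were used here. The total on mature miRNAs was between 1754971 and 5468341 counts in FH (median 3319368) and between 1831960 and 3958469 counts in SFH (median 2663375).

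A miRNA within a host gene can be released from the intron or exon of the host transcript, or from a transcript with a promoter of its own. The Microprocessor, made of the nuclease Drosha and the RNA-binding protein DGCR8, cuts the hairpin out of the primary transcript, and Dicer then cuts the hairpin into a 5p and a 3p strand, of which one is often kept more than the other. KLHL3 is an adaptor of the CUL3 ubiquitin ligase, and RPL39 is a protein of the large ribosomal subunit. The mRNAs of these host genes were not analysed here.

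The marker miRNAs of leukocytes had counts in every library, at levels that differed widely between them. bta-miR-223, a miRNA of granulocytes and monocytes, was at 16435 ± 4122 CPM (SD, n = 7) in FH and 20291 ± 4630 CPM (SD, n = 7) in SFH. bta-miR-150, a miRNA of mature lymphocytes, was at 65601 ± 15939 CPM in FH and 65247 ± 21034 CPM in SFH. The other lymphocyte markers went both ways. bta-miR-181a was at 15509 ± 5267 CPM in FH and 20291 ± 4856 CPM in SFH. bta-miR-155 was at 8522 ± 1276 CPM in FH and 7532 ± 1031 CPM in SFH, and bta-miR-342 at 13120 ± 2065 CPM and 12452 ± 2405 CPM. bta-miR-142-5p, a leukocyte marker, was at 10389 ± 3636 CPM in FH and 14141 ± 4999 CPM in SFH. At the low end, bta-miR-142-3p averaged 152 ± 109 CPM for FH and 143 ± 33.7 CPM for SFH (SD, n = 7 each), its lowest value was 51.1 CPM, and bta-miR-143 fell to 57.1 CPM. The liver miRNA bta-miR-122 had no count in 10 of the 14 heifers and stayed at or below 4.65 CPM in the others. Markers of red blood cells were present: the erythroid list summed to between 1463 CPM (SFH heifer 26) and 9236 CPM (SFH heifer 30), and its most abundant miRNA was bta-miR-451, while bta-miR-144 had no count in any heifer.

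bta-miR-874 ranked 88 of the 341 miRNAs by mean level and made up 0.0590% of the normalized total. Its deposited CPM ran from 600.4 to 1021 in FH (median 669) and from 276 to 656 in SFH (median 471). Heifers 20 (1021 CPM) and 25 (808 CPM) were the highest in FH, and heifers 26 (276 CPM) and 23 (327 CPM) were the lowest in SFH. The groups overlapped through 1 SFH heifer, 21, whose 656 CPM lay above FH heifers 27, 22 and 31. The other 6 SFH heifers lay below every FH heifer, and even heifer 21 did not reach the median of FH. The means were 715 ± 152 CPM (SD, n = 7) for FH and 459 ± 131 CPM (SD, n = 7) for SFH. The log2 fold change (SFH relative to FH) fitted by edgeR after TMM normalization, which scales each library by a trimmed mean of log ratios, was −0.71 with a standard error of 0.22. In these bulk samples, fewer cells of a type and less RNA per cell cannot be told apart.

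bta-miR-1306 ranked 100 of 341, with 0.0410% of the normalized total. Its deposited CPM ran from 294 to 862 in FH (median 400.1) and from 167 to 455 in SFH (median 329.5). The highest values were those of FH heifers 25 (862 CPM) and 20 (604 CPM). These and heifer 29 (469 CPM) were the 3 FH heifers above every SFH heifer. Only SFH heifers 28 (167 CPM) and 26 (259 CPM) lay below every FH heifer, and the other 5 SFH heifers lay within the range of FH. The means were 477 ± 197 CPM (SD, n = 7) for FH and 338 ± 103 CPM (SD, n = 7) for SFH, and the log2 fold change was −0.58 with a standard error of 0.28. Without FH heifer 25 it was −0.38.

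bta-miR-6119-3p ranked 120 of 341, with 0.0230% of the normalized total. Its deposited CPM ran from 112 to 626 in FH (median 198) and from 133 to 253 in SFH (median 182). The group medians were thus closer together than those of the other members. FH heifer 22 (626 CPM) was far above the next FH heifer, 20 (331 CPM), and FH heifer 29 (112 CPM) was the lowest of all 14 heifers. Heifers 22, 20 and 27 of FH exceeded the highest SFH value, and no SFH heifer was below all of FH. On TMM-normalized CPM, the scale of the fold change, SFH heifers 30 (135) and 23 (135) lay below FH heifer 29 (137), which was then not the lowest. The means were 279.8 ± 169.7 CPM (SD, n = 7) for FH and 185 ± 43.8 CPM (SD, n = 7) for SFH, and the log2 fold change was −0.63 with a standard error of 0.31. Without FH heifer 22 it was −0.33.

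**Figure D1:**
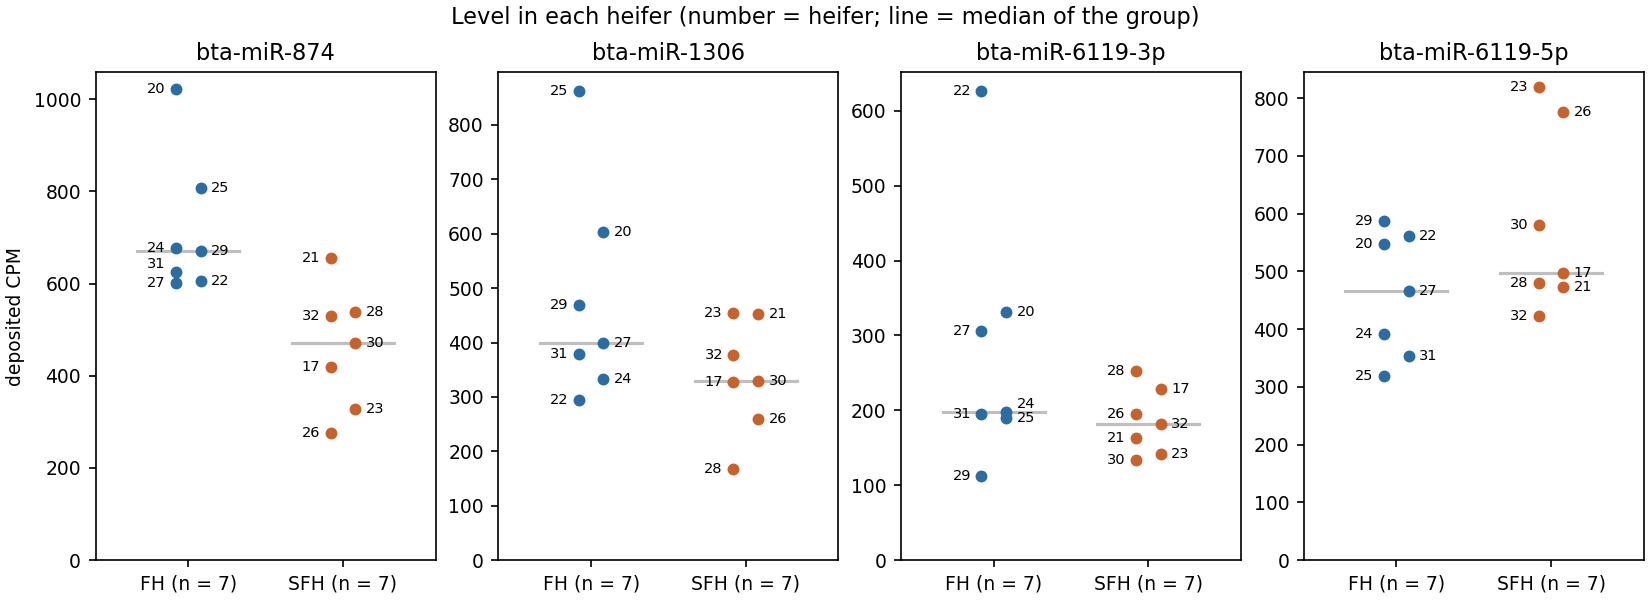
Deposited CPM (y axis, linear, each panel with its own range from 0) of the 3 miRNAs and of bta-miR-6119-5p in FH and SFH heifers. Each point is 1 heifer with its number, and lines are group medians. For bta-miR-874, 6 of the 7 SFH heifers lie below every FH heifer, and for bta-miR-6119-3p FH heifer 22 stands at 626 CPM.

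The high heifers were not the same for the 3 miRNAs. Heifer 20 was among the 2 highest FH heifers for each of them, but heifer 22, the highest for bta-miR-6119-3p, was the lowest FH heifer for bta-miR-1306 and the next to lowest for bta-miR-874. In SFH, heifer 28 had the lowest bta-miR-1306 (167 CPM) and the highest bta-miR-6119-3p (253 CPM). Heifer 23 had the highest bta-miR-1306 of the group (455 CPM, next to heifer 21 at 452 CPM) and the next to lowest bta-miR-874 (327 CPM). On TMM-normalized CPM heifer 21 was the highest of SFH for bta-miR-1306 (451, against 433 in heifer 23).

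The depth behind these values can be set beside the spread between heifers. bta-miR-874 had at least 718 counts in a heifer, bta-miR-1306 at least 513 and bta-miR-6119-3p at least 334, and none was at 0 in any heifer. The relative counting error, which treats each read as a separate molecule although PCR copies were kept, was at most 3.73%, 4.42% and 5.47%, in the same order. The SD between heifers was 21.3% of the mean in FH and 28.5% in SFH for bta-miR-874, and 41.4% and 30.5% for bta-miR-1306. For bta-miR-6119-3p it was 60.7% in FH and 23.7% in SFH. On the log2 scale of TMM-normalized CPM plus 0.5, the SD within groups was 0.37 for bta-miR-874, 0.53 for bta-miR-1306 and 0.56 for bta-miR-6119-3p. Among the 51 miRNAs nearest in abundance to each, itself included, 10 had a smaller SD than bta-miR-874, 32 a smaller one than bta-miR-1306 and 31 a smaller one than bta-miR-6119-3p.

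In the thresholds applied across all miRNAs (unadjusted p of at most 0.05 in edgeR's quasi-likelihood test and a log2 fold change of 0.5 or more in either direction), bta-miR-874 and bta-miR-1306 were 2 of the 8 miRNAs lower in SFH. These 8 are 2.35% of the 341 tested, and the 5 miRNAs higher in SFH are 1.47%. bta-miR-6119-3p lay just outside the limit on p. Since the 3 were chosen by these values, their count is not evidence of a difference. With Benjamini-Hochberg adjustment over the 341 miRNAs, edgeR gave 0 miRNAs (0%) at an adjusted p of at most 0.05, with 20 at an unadjusted p of at most 0.05. DESeq2 gave 2 after adjustment, limma-voom 0, and edgeR with every precursor entry kept 1. With library totals alone in place of TMM, and likewise with upper-quartile factors, 7 miRNAs were past the thresholds in each direction. limma-voom gave 15 higher and 8 lower in SFH, the test without the CPM filter 81 higher and 45 lower, and that with every precursor entry kept 4 higher and 16 lower.

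The members differed in how far their place in that count held. bta-miR-874 passed in all 8 other tools, scalings and filters and in all 14 fits that left out 1 heifer, with log2 fold changes between −0.82 and −0.62. bta-miR-1306 passed in 5 of the 8 and in 6 of the 14. bta-miR-6119-3p passed in 4 of the 8, DESeq2 among them, and in 5 of the 14.

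Both arms of the mir-6119 hairpin were measured, and the 5p arm was the more abundant in 13 of the 14 heifers. The deposited CPM of bta-miR-6119-5p ran from 319 to 587 in FH (median 465) and from 423 to 819.8 in SFH (median 498). Unlike bta-miR-6119-3p it had the higher mean in SFH, at 579 ± 158 CPM against 461 ± 108 CPM in FH (SD, n = 7 per group), with a log2 fold change of 0.25 and a standard error of 0.23. SFH heifers 23 and 26 lay above every FH heifer and FH heifers 25, 31 and 24 below every SFH heifer, while the remaining heifers overlapped. On TMM-normalized CPM, the scale of the fold change, the order of the medians turned (483 in FH and 478 in SFH), and 4 SFH heifers lay below the FH median in place of 1.

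The share of the 3p arm in the counts of both arms ran from 16.1% to 52.7% in FH (median 37.4%) and from 14.8% to 34.5% in SFH (median 25.6%). It was highest in FH heifer 22 (52.7%, 95% exact Clopper-Pearson interval 50.6% to 54.9%), the only heifer with more 3p than 5p counts. It was lowest in SFH heifer 23 (14.8%, interval 13.5% to 16.1%) and FH heifer 29 (16.1%, interval 14.8% to 17.4%). The other 5 FH heifers and heifer 22 lay between 33.5% and 52.7%, and 5 of them exceeded the highest SFH share. No SFH heifer reached the median share of FH. These intervals cover counting error only, since PCR copies were not removed, and the widest spanned 5.84 percentage points. Because bta-miR-6119-3p was chosen on its level in this contrast, the group shares are a description. Reads of different strands were not corrected for the preference of the adapter ligation, so the share compares heifers and does not measure the molar ratio of the arms.

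**Figure D2:**
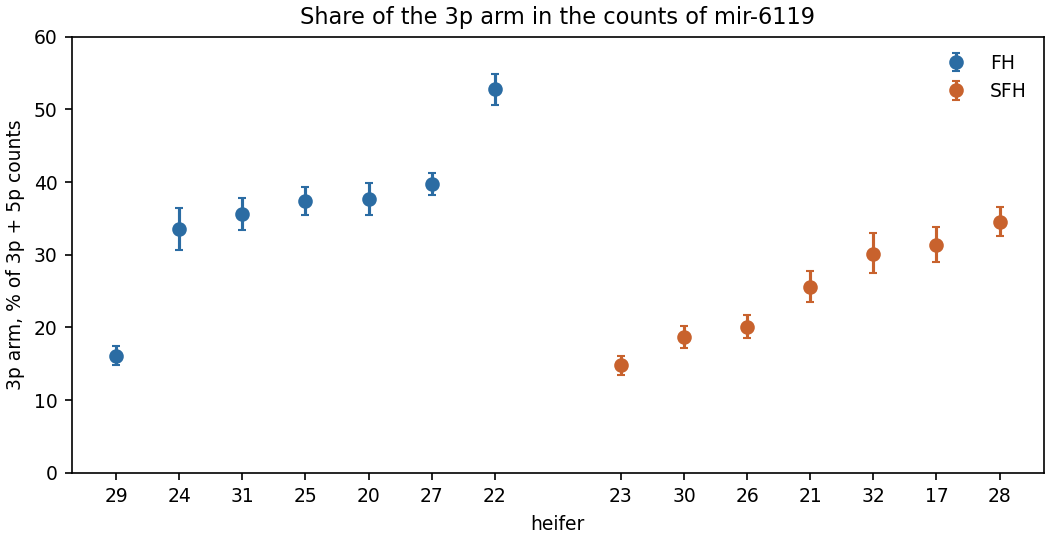
Share of the 3p arm in the counts of mir-6119 (y axis, % of 3p plus 5p counts) in each heifer (x axis, heifer number, ordered by share within FH and SFH). Bars are 95% exact Clopper-Pearson intervals. FH heifer 22 is at 52.7%, and FH heifer 29 at 16.1% lies near the lowest SFH heifer, 23, at 14.8%.

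Both arms were among the tested miRNAs for 31 hairpin names, of which bta-miR-23b and bta-miR-10174 had the same counts and were taken as 1. Of these 30, 15 had between 20% and 80% of their pooled counts on the 3p arm, mir-6119 with 29.9% among them. In 7 hairpins both arms had at least 100 counts in every heifer. The log2 ratio of 3p to 5p of mir-6119 had an SD within groups of 0.68, and 4 of these 7 hairpins had a smaller one (median of the 7, 0.60). The ratio of the mir-6119 arms was thus neither the most nor the least variable of these.

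Whether the members varied together was tested within each group, where the difference between the groups does not enter. The choice of the members used the values of these same heifers, so the tests are not wholly free of it. The levels were log2 TMM-normalized CPM plus 0.5, p-values are from exact two-sided permutation tests over the 5040 pairings of 7 heifers, and Benjamini-Hochberg adjustment covered 8 tests (3 pairs of members and the 2 arms of mir-6119, in 2 groups). With 7 heifers the smallest p that these tests allow is 0.0004. None of the 8 was past an adjusted p of 0.05, by r or by rho, and 2 were past an unadjusted p of 0.05 by r.

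The highest r of the 8 was that of bta-miR-874 and bta-miR-1306 in FH (r = 0.80, exact permutation p = 0.0361, adjusted p = 0.144; rho = 0.86, p = 0.0238, adjusted p = 0.190; n = 7). Heifers 20 and 25 were high for both, and heifers 22, 24 and 31 were low for bta-miR-1306. Without heifers 20 and 25, the farthest from the median of bta-miR-874, r was 0.85. With library totals in place of TMM factors r was 0.73 and no longer past an unadjusted p of 0.05, as was the case over 6 heifers without heifer 22 (r = 0.74), 29 (r = 0.79) or 31 (r = 0.79). In SFH the same pair showed no relation that 7 heifers could detect (r = 0.02, exact permutation p = 0.944, adjusted p = 0.944; rho = 0.25, p = 0.595, adjusted p = 0.906; without heifers 23 and 26, r = 0.20). The difference between the groups in this correlation was not tested.

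The lowest r of the 8 was that of bta-miR-1306 and bta-miR-6119-3p in SFH (r = −0.81, exact permutation p = 0.0321, adjusted p = 0.144; rho = −0.71, p = 0.0881, adjusted p = 0.352; n = 7). Heifer 28 was at one end of this relation, and without it r was −0.61. Over 6 heifers r was not past an unadjusted p of 0.05 without heifer 28, nor without heifer 17 (r = −0.86), 23 (r = −0.76), 26 (r = −0.80) or 32 (r = −0.81). Without heifers 21 and 28, the farthest from the median of bta-miR-1306, r was −0.72. With library totals in place of TMM factors it was also −0.72 and not past an unadjusted p of 0.05. In FH the value was nearer to 0 (r = −0.45, exact permutation p = 0.312, adjusted p = 0.830; rho = −0.14, p = 0.783, adjusted p = 0.906) and rested on heifer 22, without which r was −0.05. Without heifer 25 alone it was −0.43, and without both, the farthest from the median of bta-miR-1306, it was 0.09.

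bta-miR-874 and bta-miR-6119-3p showed no detectable relation in either group. In FH r was −0.29 (exact permutation p = 0.519, adjusted p = 0.830; rho = −0.11, p = 0.840, adjusted p = 0.906), and −0.74 without heifers 20 and 25. The sign turned without heifer 22 (r = 0.12). With library totals in place of TMM factors r in FH was −0.04, and on linear deposited CPM it was −0.10. In SFH r was 0.08 (exact permutation p = 0.858, adjusted p = 0.944; rho = 0.07, p = 0.906, adjusted p = 0.906), and −0.18 without heifers 23 and 26.

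**Figure D3:**
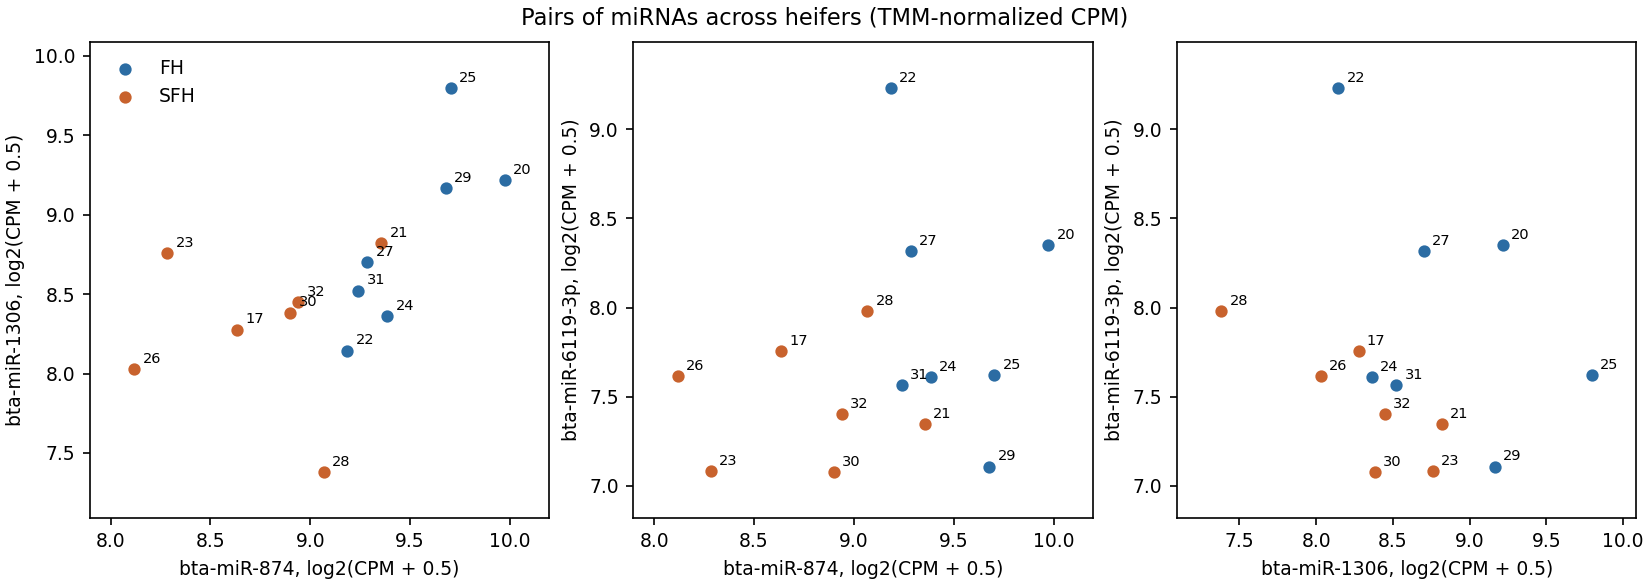
Pairs of the 3 miRNAs across heifers (both axes log2 TMM-normalized CPM plus 0.5), with FH and SFH in different colours and the heifer number at each point. r was 0.80 for bta-miR-874 and bta-miR-1306 in FH and −0.81 for bta-miR-1306 and bta-miR-6119-3p in SFH, neither past an adjusted p of 0.05.

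The 2 arms of mir-6119, cut from the same hairpin, showed no detectable correlation over the 7 heifers of either group. In FH r was 0.16 (exact permutation p = 0.734, adjusted p = 0.944; rho = 0.11, p = 0.840, adjusted p = 0.906). It was 0.30 with library totals in place of TMM factors and 0.41 on linear deposited CPM. Without heifers 25 and 29, the farthest from the median of bta-miR-6119-5p, r was 0.87, and without heifer 29 alone it was also 0.87 and past an unadjusted p of 0.05. Heifer 29 had the highest bta-miR-6119-5p in FH (587 CPM) and the lowest bta-miR-6119-3p (112 CPM), and its TMM factor, 0.817, was the lowest of the 14. In SFH r was −0.34 (exact permutation p = 0.433, adjusted p = 0.830; rho = −0.25, p = 0.595, adjusted p = 0.906), and −0.34 without heifers 23 and 26. Over all 14 heifers with the group means removed, the arms had a residual r of 0.00 and rho of 0.03, as a description.

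The members did not follow the depth of the libraries in a way that could be detected. Over 6 tests of a member against the log2 total count within a group, 0 had an exact permutation p of at most 0.05 by r or rho, with or without Benjamini-Hochberg adjustment. The largest r was that of bta-miR-1306 in FH (r = 0.58, exact permutation p = 0.163, adjusted p = 0.777; rho = 0.61, p = 0.167, adjusted p = 0.707; n = 7). It rested on the shallow libraries of heifers 22 and 24, without which r was 0.05. For bta-miR-6119-3p r was −0.44 in FH (exact permutation p = 0.334, adjusted p = 0.777; rho = −0.18, p = 0.713, adjusted p = 1) and −0.38 in SFH (exact permutation p = 0.388, adjusted p = 0.777; rho = −0.54, p = 0.236, adjusted p = 0.707). Without the farthest pair of libraries, heifers 22 and 24 in FH and 30 and 32 in SFH, these were −0.30 and −0.28. For bta-miR-874 r was 0.11 in FH (exact permutation p = 0.800, adjusted p = 0.984; rho = 0.18, p = 0.713, adjusted p = 1; without heifers 22 and 24, r = −0.51). In SFH it was 0.02 (exact permutation p = 0.984, adjusted p = 0.984; rho = 0.00, p = 1, adjusted p = 1; without heifers 30 and 32, r = 0.06). For bta-miR-1306 in SFH r was −0.09 (exact permutation p = 0.857, adjusted p = 0.984; rho = 0.07, p = 0.906, adjusted p = 1; without heifers 30 and 32, r = −0.12).

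The miRNAs whose pattern was most like each member were taken by Spearman's rho of the residuals over the 14 heifers, among the tested miRNAs with a mean of at least 10 CPM, as a description of these libraries. For bta-miR-1306 they were bta-miR-320a (rho = 0.91, the highest of 265 compared), bta-miR-222 (rho = 0.87) and bta-miR-1842 (rho = 0.80). bta-miR-320a was at 9073 ± 5725 CPM in FH and 7224 ± 2293 CPM in SFH, and bta-miR-222 at 2774 ± 783 CPM (SD, n = 7) in FH and 2584 ± 721 CPM (SD, n = 7) in SFH. Both were thus far more abundant than bta-miR-1306, and their log2 fold changes were −0.41 (standard error 0.29) and −0.19 (standard error 0.20). bta-miR-1842 was at 14.9 ± 7.53 CPM in FH and 10.9 ± 4.72 CPM in SFH. The Pearson residual correlations with bta-miR-1306 were 0.91, 0.86 and 0.67, in the same order.

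The nearest miRNAs of bta-miR-874 had lower values of rho. They were bta-miR-3431 (rho = 0.72), bta-miR-143 (rho = 0.68) and bta-miR-6775 (rho = 0.67), of which bta-miR-143, at 187 ± 41.7 CPM in FH and 248 ± 146 CPM in SFH, was the only one with a mean above 20 CPM in either group. Their Pearson residual correlations with bta-miR-874 were 0.64, 0.43 and 0.73, in the same order. For bta-miR-6119-3p they were bta-miR-11977 (rho = 0.88), bta-miR-450a (rho = 0.81) and bta-miR-2904 (rho = 0.77), all with group means between 9.01 and 16.3 CPM and SDs between 8.78 and 15.8 CPM. Their Pearson residual correlations with bta-miR-6119-3p were 0.70, 0.73 and 0.51, each below its rho. The part of low counts in this likeness was not tested.

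The members were not among the nearest miRNAs of each other. By residual rho, bta-miR-1306 ranked 18 of 265 for bta-miR-874 (rho = 0.41), and bta-miR-6119-3p ranked 213 of 265 for bta-miR-1306 (rho = −0.36). bta-miR-6119-5p ranked 115 of 265 for bta-miR-6119-3p. For bta-miR-874 and bta-miR-6119-3p the residual rho was 0.05.

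The marker lists were set beside the members by Spearman's rho of the residuals over the 14 heifers. The marker sums were log2 CPM plus 0.5 without TMM factors, while the members were on TMM-normalized CPM. The sum of the 3 leukocyte markers (3 of 3 tested, most abundant bta-miR-223) ran from 21272 CPM (FH heifer 31) to 44970 CPM (SFH heifer 30), with means of 26976 ± 5795 CPM for FH and 34576 ± 7912 CPM for SFH. The residual rho was −0.09 for bta-miR-874, −0.21 for bta-miR-1306 and 0.31 for bta-miR-6119-3p. The sum of the 4 lymphocyte markers (4 of 4 tested, most abundant bta-miR-150) was 102752 ± 18193 CPM in FH and 105521 ± 26902 CPM in SFH, with residual rho of −0.30, −0.35 and −0.03. The granulocyte and monocyte pair (2 of 2 tested) summed to 16623 ± 4120 CPM in FH and 20539 ± 4531 CPM in SFH, with residual rho of 0.16, 0.38 and 0.11. bta-miR-223, also in the leukocyte list, made up most of this sum (16435 CPM in FH and 20291 CPM in SFH). The other miRNA of the pair, bta-miR-143, was among the nearest of bta-miR-874 (rho = 0.68). Among markers of other cells, the erythroid sum (2 of 3 tested) was 2493 ± 846 CPM in FH and 3482 ± 2724 CPM in SFH, with residual rho of 0.35, −0.05 and 0.01. The SFH mean rested on heifer 30, without which it was 2522 ± 1083 CPM (SD, n = 6). The platelet and endothelium pair, bta-miR-126-3p and bta-miR-126-5p, summed to 43.8 ± 17.0 CPM in FH and 32.0 ± 13.8 CPM in SFH, with residual rho of 0.48 for bta-miR-874, −0.17 for bta-miR-1306 and 0.35 for bta-miR-6119-3p.

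The muscle list (1 of 3 tested, most abundant bta-miR-1) summed to 16.7 ± 30.6 CPM in FH and 46.3 ± 101 CPM in SFH. It had a residual rho of 0.42 with bta-miR-874, 0.57 with bta-miR-1306 and −0.08 with bta-miR-6119-3p. Its sum was 275 CPM in SFH heifer 21 and 85.6 CPM in FH heifer 20, and at most 22.0 CPM in the other heifers, with no count in FH heifer 31. Heifer 21 was the highest SFH heifer for bta-miR-874, and heifer 20 the highest FH heifer. bta-miR-206 had no count in 12 heifers and bta-miR-133a in 10. The part of the muscle and other marker lists in the levels of the members was not tested.

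A precursor gene was matched by name for 332 of the 341 miRNAs. Of these, 217 had a precursor that overlapped a protein-coding gene by position, without regard to strand, and 115 did not. In the host-gene list 5 miRNAs were past the thresholds and higher in SFH and 4 were lower, bta-miR-874 and bta-miR-1306 among the latter, with a median log2 fold change of 0.07. Without the 3 members and bta-miR-6119-5p, 5 of 213 were higher and 2 lower. In the list outside protein-coding genes 0 of 115 were higher and 4 lower (median 0.04), and over all 341 the median was 0.06. The miRNAs past the thresholds were 4.15% of the host-gene list, 3.48% of the list outside protein-coding genes and 3.81% of all 341. Without the members and bta-miR-6119-5p the share of the host-gene list was 3.29%. Since the members were chosen by these values, leaving them out lowers the share, which is therefore not compared with the others.

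The 5 most abundant miRNAs of the host-gene list were bta-miR-26a (hosts CTDSP2 and CTDSPL), bta-let-7a-5p (LOC101903200), bta-let-7f (HUWE1), bta-let-7g (WDR82) and bta-miR-26b (CTDSP1). bta-let-7a-5p has 4 precursor genes and bta-let-7f has 2. The level of such a miRNA cannot be assigned to a single host gene. Each was far more abundant than the members. bta-miR-26a was at 104404 ± 11225 CPM (SD, n = 7) in FH and 106055 ± 7793 CPM (SD, n = 7) in SFH, with a log2 fold change of −0.05 and a standard error of 0.13. bta-let-7a-5p was at 76725 ± 16968 CPM in FH and 58006 ± 2923 CPM in SFH, with a log2 fold change of −0.49 and a standard error of 0.16. The other 3 had log2 fold changes between −0.23 and −0.04.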

How the data were processed

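The deposited count for each mature miRNA was made by the authors with miRDeep2 from trimmed reads, against the ARS-UCD1.2 genome and miRBase. The deposited CPM were made by the authors for the 341 miRNAs they retained, and were recomputed from the counts. Each member has 1 line in the count table. For miRNAs with several, the line with the highest total was used. miRNAs that reached 1 CPM in 7 or more heifers were tested with edgeR 4.0.16 (quasi-likelihood, TMM, group as the only term) in R 4.3.3. The alternatives used DESeq2 1.42.0 and limma 3.58.1, other scaling factors, filters, pseudocounts and scales, and left out each heifer in turn. A count of 0 allows up to 3 counts, or 0.549 to 1.71 CPM, by counting error only. Correlations were computed with scipy 1.17.1 and numpy 2.4.6, and tables were handled with pandas 2.3.3, in Python 3.11.15. The code was tested on simulated data.

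The miRNAs named are the members, bta-miR-6119-5p and the 3 miRNAs with the highest residual rho per member. The 5 most abundant miRNAs of the host-gene list and the marker miRNAs are named too. The members and lists were chosen with earlier results of these data known, and the comparison with other hairpins was added after values were seen. Positions were compared in ARS-UCD2.0, another assembly than that of the files, so no coordinates are given. miRNA sequences and lists of shared seeds were not used here.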

Additional observations from a re-analysis of the deposited data

Results flagged for a closer look

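The deposited CPM of bta-miR-6119-3p in FH heifer 22, 625.6, stood apart from the other FH heifers. Its gap to the next heifer, at 330.8 CPM, was 0.574 of the range of the group, above Dixon's 95% critical value for 7 samples (0.568). On log2 TMM-normalized CPM plus 0.5, a scale added after the values were seen, the gap was 0.415 of the range and below that value. Of the 10 groups of values examined this way, 1 was past that value, where chance gives about 1 in 20 groups. That rate does not apply to bta-miR-6119-3p, which was chosen on its higher mean in FH, a choice that a single high FH heifer favours, so the value is a description.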

How the results depend on the processing

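The log2 fold changes of the 3 members and of bta-miR-6119-5p kept their sign in all alternatives. With each heifer left out they ran from −0.82 to −0.62 for bta-miR-874, −0.68 to −0.38 for bta-miR-1306 (−0.38 without FH heifer 25), −0.78 to −0.33 for bta-miR-6119-3p (−0.33 without FH heifer 22) and 0.15 to 0.35 for bta-miR-6119-5p (0.15 without SFH heifer 23 or 26). bta-miR-1306 was not past the thresholds without FH heifer 20 (−0.53), 25 or 29 (−0.56), or SFH heifer 17 (−0.57), 26 (−0.54), 28 (−0.47), 30 (−0.59) or 32 (−0.60). bta-miR-6119-3p was past them without FH heifer 24 (−0.70), 25 (−0.70), 29 (−0.78) or 31 (−0.71), or SFH heifer 28 (−0.73). The 13 miRNAs past the thresholds became 23 with limma-voom, 126 of 614 without the CPM filter, 20 with every precursor entry kept, and 11 to 22 with a heifer left out (22 without FH heifer 24, 20 without SFH heifer 26). The cause was not tested. Of the 8 tests of pairs, the 2 with an unadjusted p of at most 0.05 became 0 with library totals only or on linear deposited CPM, 1 with Spearman's rho, and 1 to 2 with a heifer left out (1 without FH heifer 22 or 31, or SFH heifer 17, 23, 26, 28 or 32). The 6 tests against the total count gave 0 in every alternative. With a heifer left out, r of bta-miR-874 and bta-miR-1306 ran from 0.74 to 0.89 in FH and −0.38 to 0.52 in SFH, r of bta-miR-874 and bta-miR-6119-3p from −0.68 to 0.12 in FH and −0.21 to 0.27 in SFH, r of bta-miR-1306 and bta-miR-6119-3p from −0.58 to −0.05 in FH and −0.89 to −0.61 in SFH, and r of the mir-6119 arms from −0.0533 to 0.873 in FH and −0.57 to −0.07 in SFH. Against the total count the ranges were −0.15 to 0.49 in FH and −0.10 to 0.17 in SFH for bta-miR-874, 0.42 to 0.75 in FH and −0.22 to 0.20 in SFH for bta-miR-1306, and −0.68 to −0.10 in FH and −0.75 to −0.08 in SFH for bta-miR-6119-3p. The sign turned for bta-miR-874 against the total with library totals only (−0.138 in FH, −0.0650 in SFH) and on linear CPM (−0.197 in FH, −0.0490 in SFH), and for bta-miR-1306 in SFH with Spearman's rho (0.0714).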
